A study of Mus musculus with 4 samples.

Results

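The 1466 liver sites described here are binding sites of the estrogen receptor ESR1 that were called in mouse liver, had no called counterpart in mouse uterus at the same place, and yet lay close to a uterus site. They are liver peaks on the autosomes that shared no base with a uterus peak and whose summit, the position of highest signal in a peak, was at most 10 kb from the nearest uterus summit. They made up 21.3% of the 6896 autosomal liver peaks (95% Wilson interval 20.3 to 22.2) and 27.9% of the 5258 autosomal liver peaks without an overlapping uterus peak (26.7 to 29.1). They are called adjacent sites below. The other 3792 liver peaks without overlap lay more than 10 kb from any uterus summit and are called remote sites, and the 1638 liver peaks that met a uterus peak are called overlapping sites. The called peaks of both tissues chose the adjacent sites, so their number and their distance from uterus summits are descriptions and were not tested.

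ESR1, a receptor of the nuclear hormone family, is activated by estrogens and then acts at DNA, either directly at estrogen response elements or through other DNA-bound factors. Which of its possible sites are occupied differs between tissues, and accessible chromatin and partner factors such as forkhead proteins are known to bear on it. The uterus is a classical estrogen target in which ESR1 drives growth of the epithelium and stroma, and in liver the receptor takes part in the control of lipid and glucose metabolism.

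The libraries came from flash-frozen liver and uterus of female C57BL/6 mice aged 8 weeks, and the labels name no hormone or drug treatment and no genetic change. Chromatin immunoprecipitation with an antibody against ESR1 was followed by sequencing (ChIP-seq), with 1 ESR1 library and 1 input control per tissue. Each library stands for a whole organ with several cell types, so strong binding in few cells and weak binding in many cannot be told apart. How many animals were pooled for a library is not stated in the labels, and 1 library per tissue leaves no spread between animals to measure a difference against.

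The ESR1 libraries held 20016495 unique tags in liver and 22298008 in uterus, and gave 6932 and 24836 peaks, of which 6896 and 24527 were autosomal. Tags are sequenced fragment ends, counted per peak without scaling to depth. Fold enrichment is the authors' value per peak, the ratio of ChIP signal to the local background estimated from the control, and it is used here only to describe and rank peaks within a list. A site counted as absent from uterus is a site without a called peak. The uterus tags at the adjacent sites were not analysed here. Intervals are 95% intervals that cover counting error only. They treat peaks as independent, which peaks in clusters are not, so they are too narrow.

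The number of adjacent sites per kb was highest a short way from the uterus summits. Their median distance from the nearest uterus summit was 4207.5 bp (quartiles 2108 and 7038 bp), with a lowest value of 423 bp and a highest of 9986 bp. Counted per kb of distance, 242 liver-only peaks lay between 1 and 2 kb from a uterus summit, 208 between 2 and 3 kb and 165 between 3 and 4 kb. From 4 to 10 kb the number stayed between 109 and 137 per kb. The first kb held only 96, since the median width of these peaks was 627 bp and pairs with summits that close mostly overlap, which removes them from the set. Measured from edge to edge, 61 adjacent sites (4.16%, 3.25 to 5.31) were separated from the nearest uterus peak by at most 200 bp and 264 (16.1 to 20.1%) by at most 1000 bp.

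**Figure D1:**
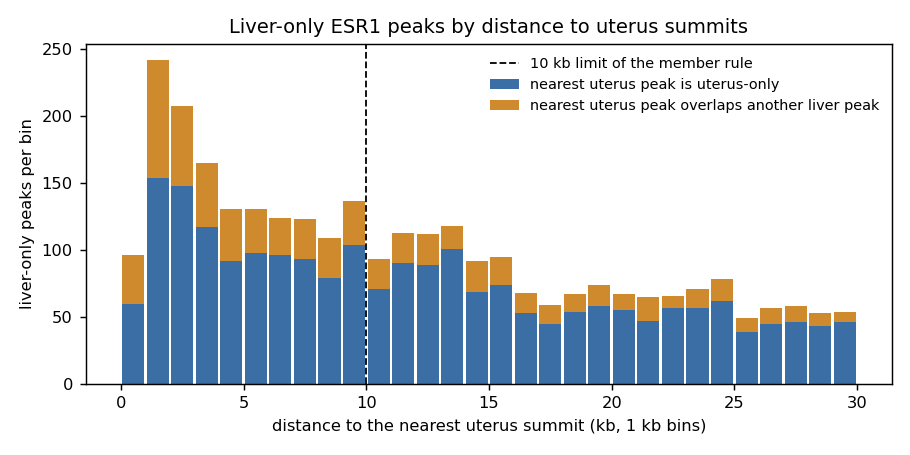
Number of autosomal liver-only peaks (y axis) by distance to the nearest uterus summit in bins of 1 kb (x axis), divided by whether that uterus peak overlaps another liver peak. The count is highest at 242 in the second bin, stays between 109 and 137 from 4 to 10 kb, and is 137 and 93 in the bins on either side of the dashed 10 kb limit.

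The number of liver-only peaks was 137 in the last kb inside the limit of 10 kb and 93 in the first kb outside it, followed by 113 and 112 in the next. The 4 adjacent sites just inside it had summit distances of 9967 to 9986 bp, fold enrichments of 5.26 to 26.7 and 56 to 76 tags. The outermost of them was on chromosome 15 at 103070082 to 103070790 (12.2-fold, 76 tags). The 4 liver-only peaks just outside it had summit distances of 10002 to 10046 bp, fold enrichments of 7.47 to 32.9 and 33 to 176 tags. The nearest of these was on chromosome 9 at 42265411 to 42266114 (16.9-fold, 96 tags). Positions throughout are mm9 coordinates, copied from the deposited lists. Genes at these positions are not named and sequences are not shown, because an mm9 genome and annotation were not used here.

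The 6 closest adjacent sites lay beside a uterus peak with 0 to 177 bp between the edges. They were 397 to 738 bp wide and held 28 to 82 tags at 7.82- to 11.8-fold. On chromosome 19 the liver peak at 47045480 to 47045891 (28 tags, 7.82-fold) began 79 bp beyond the end of a uterus peak at 47044846 to 47045400 (40 tags, 6.99-fold), with summits 423 bp apart. On chromosome 9 the liver peak at 120260689 to 120261085 (28 tags, 11.4-fold) was 51 bp from a uterus peak of 50 tags and 11.0-fold. On chromosome 4 the liver peak at 150172290 to 150172803 (45 tags, 11.8-fold) was 2 bp from a uterus peak of 39 tags and 10.5-fold. On chromosome 17 no base lay between the peaks. There the liver peak ended at 29629317 (44 tags, 10.3-fold) and the uterus peak began at 29629318 (48 tags, 10.4-fold), with summits 486 bp apart. The last 2 of the 6 closest pairs were on chromosome 9 at 123125271 to 123125797 in liver (45 tags, 7.88-fold, summits 533 bp apart) and chromosome 6 at 35247429 to 35248166 (82 tags, 11.2-fold, 550 bp). In 5 of these 6 pairs the uterus peak overlapped no liver peak at all, which held for the nearest uterus peak of 71.0% of all adjacent sites.

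For many adjacent sites the uterus neighbour was itself bound in liver. In 425 of the 1466 (29.0%, 26.7 to 31.4) the nearest uterus peak overlapped another liver peak, so that a shared site and a liver-only site lay side by side. Over all autosomal uterus peaks the share that overlapped a liver peak was 6.63%. Because some uterus peaks were nearest to several adjacent sites, the share was also taken over the 1197 distinct uterus neighbours, where it was 26.4% (24.0 to 29.0). The uterus peaks nearest to remote sites were shared in 15.0% of 2331 cases (13.6 to 16.5), which was 11.4 percentage points lower (Newcombe interval of the difference 8.53 to 14.3). A uterus peak nearest to both an adjacent and a remote site was counted in both groups, which this interval does not allow for. For the remaining 1041 adjacent sites (71.0%) the nearest uterus peak was uterus-only, so this pair of called peaks lay at different positions within 10 kb. Another liver summit lay within 10 kb of 40.8% of these 1041 sites, and another liver-only summit of 36.2%. Some of them therefore also had a liver peak that overlapped a uterus peak within that range.

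The share with a shared uterus neighbour was graded with distance. It was 37.5% (28.5 to 47.5) of the 96 adjacent sites within 1 kb of the uterus summit and 36.4% (30.6 to 42.6) of the 242 between 1 and 2 kb. It fell to 29.0% at 2 to 4 kb, 27.5% at 4 to 6 kb and 23.5% (18.6 to 29.1) at 6 to 8 kb. At 8 to 10 kb it was 25.6% (20.6 to 31.4), so the fall was not even, and the intervals from 2 to 10 kb overlapped. The decline went on among the remote sites, with 21.0% at 10 to 20 kb, 17.1% at 20 to 50 kb, 14.1% at 50 to 100 kb and 9.12% (7.20 to 11.5) beyond 100 kb. A uterus peak that overlaps a liver peak brings a further liver peak with it, so the same figures also describe how near liver peaks lay to other liver peaks. The local density of liver peaks was not held constant in this comparison, and its part in the gradient was not tested.

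**Figure D2:**
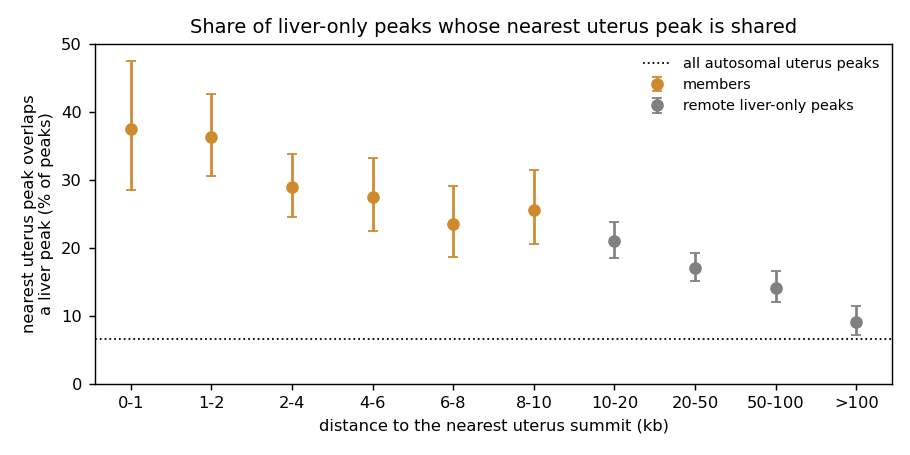
Share of liver-only peaks, in percent with 95% Wilson intervals (y axis), whose nearest uterus peak overlaps a liver peak, by distance to that uterus summit in kb (x axis). Adjacent sites are in orange and remote sites in grey. The points fall from 37.5% within 1 kb to 9.12% beyond 100 kb, except between 6 to 8 kb (23.5%) and 8 to 10 kb (25.6%). The dotted line marks the 6.63% of all autosomal uterus peaks.

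Adjacent sites often came in groups. Another liver summit lay within 10 kb of 850 adjacent sites (58.0%, 55.4 to 60.5), against 40.4% of all autosomal liver peaks, and up to 6 other liver summits lay that near. Part of this was set by the rule, since a shared site within 10 kb makes a liver-only peak adjacent and never remote. When only liver-only peaks were counted as neighbours, the share was 40.4% (37.9 to 42.9) for adjacent and 37.1% (35.6 to 38.7) for remote sites, a difference of 3.28 percentage points (0.350 to 6.23). That difference was -0.0161 points (-3.54 to 3.60) when adjacent sites were limited to 5 kb, and -0.140 points (-3.24 to 3.02) when peaks within 1000 bp of each other counted as overlapping. It was 1.03 points (-3.65 to 6.02) with both lists limited to MACS scores, 10 times the −log10 of the p-value, from 200 upwards. It was 7.29 points (3.64 to 11.04) with both limited to 10-fold enrichment or more, 3.30 points (0.661 to 5.94) with a limit of 20 kb and 3.45 points (0.559 to 6.38) with distances between edges. The interval thus included 0 under 3 of these 6 settings.

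Within the adjacent sites the grouping went with the kind of uterus neighbour. Of the 425 beside a shared uterus peak, 50.6% (45.9 to 55.3) had a further liver-only summit within 10 kb, and of the 1041 beside a uterus-only peak 36.2% (33.4 to 39.2) had one. The difference was 14.4 percentage points (8.78 to 19.9). With both lists limited to MACS scores from 200 upwards it was 8.66 points with an interval from -1.98 to 20.1. The sites beside a uterus-only peak differed from remote sites by -0.889 points (-4.15 to 2.44). The edge of another liver peak lay within 500 bp of 18.1% (14.7 to 22.1) of the adjacent sites beside a shared uterus peak, 5.19% of those beside a uterus-only peak and 5.51% (4.83 to 6.28) of remote sites. Thus 77 of the 425 sites beside a shared uterus peak bordered closely on another called liver peak, and whether these are separate sites or pieces of a broad region was not tested. Part of this contrast is set by the split, since a shared uterus neighbour always comes with a liver peak that overlaps it. All 425 had another liver summit within 10 kb, against 40.8% of the 1041.

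The 3 uterus peaks described next were picked for being nearest to the most adjacent sites, so groups at them follow from that choice. All 3 also overlapped a liver peak. A single uterus peak was nearest to 5 adjacent sites and 7 were nearest to 4, of which the first 2 by chromosome are described. On chromosome 15 a uterus peak at 7087437 to 7088138 (233 tags, 101-fold) coincided with a liver peak at 7087466 to 7088249 (228 tags, 28.6-fold), with summits 15 bp apart. Around it 5 liver-only peaks of 8.08- to 15.8-fold and 43 to 97 tags had their summits at -1575, 952, 3317, 6145 and 8049 bp. All 5 were lower in fold and tags than the liver peak at the shared position, and 4 of them lay on the same side. On chromosome 2 a uterus peak at 172982799 to 172983261 (63 tags, 28.0-fold) had 4 adjacent sites, with summits at -9303, -4762, 562 and 2438 bp. The first of these was 3997 bp from the next liver peak, and the following 4 liver peaks were 152 to 434 bp apart. The peak at 172977976 to 172981156 (405 tags, 15.2-fold) was 152 bp from the overlapping liver peak (134 tags, 5.02-fold), which was 204 bp from the peak at 172983318 to 172984363 (69 tags, 5.93-fold). On chromosome 4 a uterus peak at 149163791 to 149164361 (58 tags, 11.7-fold) coincided with a liver peak of 68 tags and 13.6-fold, and had 4 adjacent sites of 10.3- to 22.1-fold. The strongest of these, at 149168032 to 149168535 (52 tags, 22.1-fold), was higher in fold than the liver peak at the shared position but held fewer tags.

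**Figure D3:**
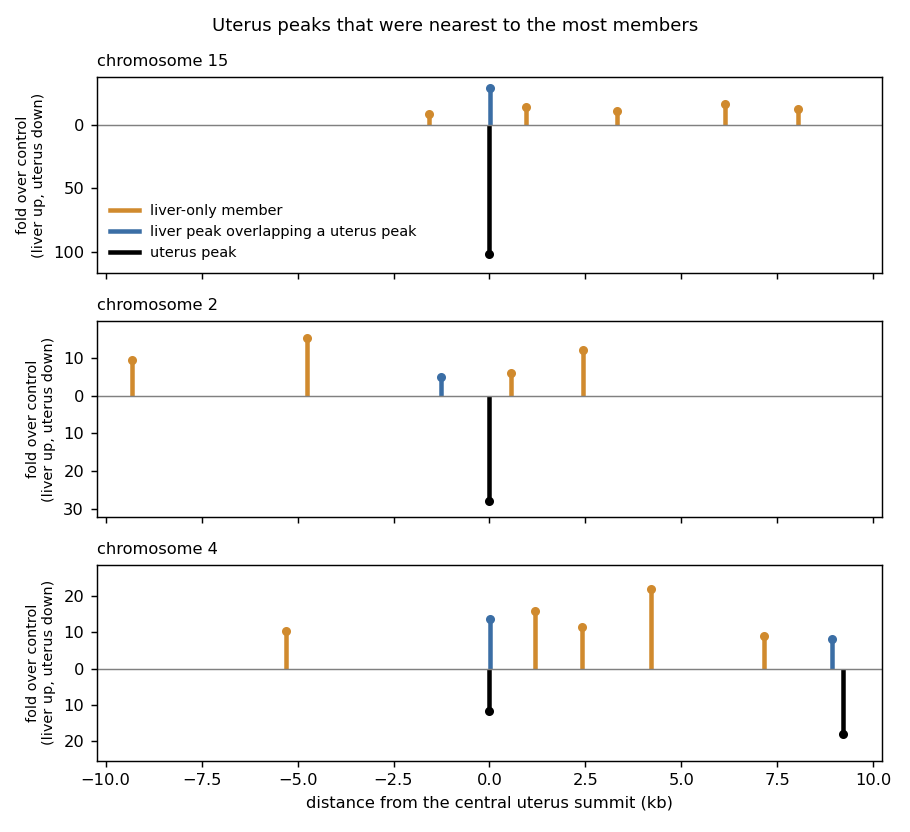
Peaks around the uterus summit nearest to 5 adjacent sites and around 2 of the 7 nearest to 4, by distance from that summit in kb (x axis), with the authors' fold enrichment over control (y axis, linear) drawn upwards for liver and downwards for uterus. On chromosome 15 the 5 orange adjacent sites (8.08- to 15.8-fold) surround a shared site, and on chromosomes 2 and 4 there are 4 sites nearest to the central summit, with 1 further adjacent site on chromosome 4 that is nearer to another uterus summit.

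Across the whole set, 978 uterus peaks were nearest to 1 adjacent site each, and 219 were nearest to 2 or more, which together took in 488 adjacent sites. In 133 of these 219 cases all the adjacent sites lay on the same side of the uterus summit, and in 86 they lay on both sides. From the adjacent sites' own position, 1008 (68.8%) had a single uterus summit within 10 kb, 316 (21.6%) had 2 and 142 (9.69%) had 3 or more, up to 8. Uterus summits lay on both sides of 248 adjacent sites (16.9%, 15.1 to 18.9), against 9.14% of all autosomal liver peaks. The rule sets that contrast, because no remote site can have one.

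The neighbourhoods between 10 and 100 kb were also richer in sites. For uterus summits this is not independent of the rule, which divided the sites by their distance from the nearest uterus summit. Between 10 and 100 kb from an adjacent site there was a median of 4 uterus summits (quartiles 2 and 7), against 2 (1 and 4) for remote and 3 (1 and 6) for overlapping sites. No uterus summit lay in that range for 9.21% (7.83 to 10.8) of adjacent and 18.5% (17.3 to 19.8) of remote sites, a difference of -9.30 percentage points (-11.2 to -7.31). The remote sites counted here are the 702 whose nearest uterus summit was more than 100 kb away, so the rule's own distance enters this difference. For liver summits the medians were 2 in adjacent and 1 in both remote and overlapping sites. No liver summit lay in that range for 19.5% (17.6 to 21.6) of adjacent and 28.2% (26.8 to 29.6) of remote sites, a difference of -8.66 points (-11.1 to -6.12). Compared with remote sites, adjacent sites lay in stretches where both tissues had more ESR1 peaks between 10 and 100 kb away.

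In strength the adjacent sites were close to the remote sites and weaker than the overlapping ones. Their median fold enrichment was 11.2 (quartiles 9.07 and 14.3, range 4.78 to 53.03), against 10.9 (8.74 and 14.1) in remote and 11.9 (9.07 and 17.3) in overlapping sites. The median tag number was 57 (44 and 77.8) in adjacent, 55 (43 and 74) in remote and 68 (50 and 98) in overlapping sites. The median widths were 627, 619 and 678.5 bp. The classes differed most at the upper end. A fold enrichment of at least 20 was reached by 106 adjacent sites (7.23%, 6.01 to 8.67), 8.36% of remote sites (7.52 to 9.28) and 18.4% of overlapping sites (16.6 to 20.3), with 10.5% over all autosomal liver peaks. The difference from overlapping sites was -11.1 percentage points (-13.4 to -8.84), and that from remote sites was -1.13 points (-2.66 to 0.538), an interval that includes 0. By MACS score there was a small difference in the other direction, with 40.2% of adjacent and 35.7% of remote sites at a score of at least 200 (difference 4.57 points, 1.65 to 7.51).

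**Figure D4:**
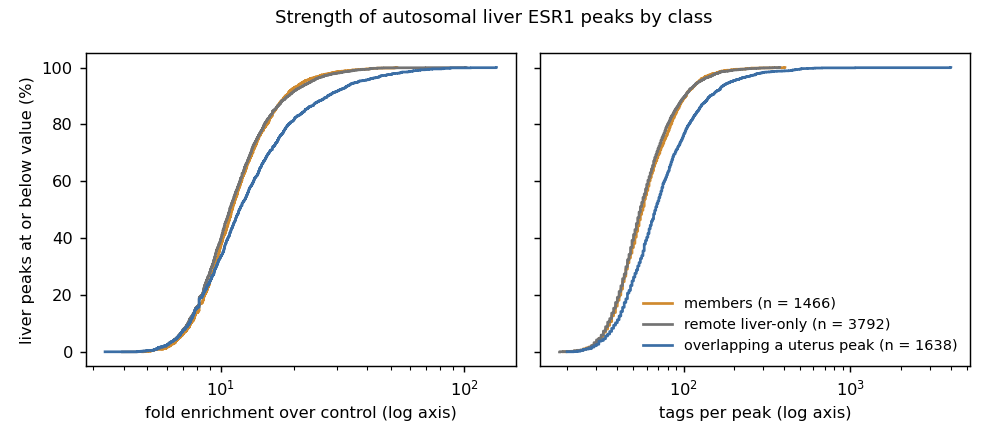
Cumulative share of autosomal liver peaks in percent (y axis) at or below a given fold enrichment over control (left) or tag number (right), both on log axes, for the 1466 adjacent (orange, in the key members), 3792 remote and 1638 overlapping sites. The curves of adjacent and remote sites run together, with median folds of 11.2 and 10.9, while 18.4% of the overlapping sites and 7.23% of the adjacent sites reach 20-fold.

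Strength did not change in 1 direction with distance from the uterus summit. The median liver fold enrichment was 10.5 within 1 kb, 11.1 at 1 to 2 kb, 10.7 at 2 to 4 kb, 11.6 at both 4 to 6 and 6 to 8 kb, and 11.2 at 8 to 10 kb. The adjacent sites beside a shared uterus peak and those beside a uterus-only peak had median folds of 11.1 and 11.2. Of the former 7.29% (5.19 to 10.2) and of the latter 7.20% (5.79 to 8.94) reached 20-fold, a difference of 0.0895 points (-2.64 to 3.29).

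The strongest adjacent sites were nevertheless among the clear peaks of the liver list, and several stood beside uterus peaks of low fold enrichment. The 10 of highest fold enrichment ranged from 37.9- to 53.0-fold and from 121 to 254 tags. The first of them was on chromosome 7, at 104571903 to 104572923 (254 tags, 53.0-fold), 7936 bp from the summit of a uterus-only peak of 45 tags and 24.3-fold. The second lay on chromosome 9 at 42279992 to 42280666 (136 tags, 52.2-fold) and had a uterus summit on either side, the nearer 3141 bp away (57 tags, 23.1-fold). The third lay on chromosome 3 at 133411556 to 133412269 (251 tags, 51.5-fold), and its neighbour 9539 bp away was a strong uterus-only peak of 261 tags and 110-fold. In this pair each tissue had a strong peak where the other had none called.

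The other leading sites had neighbours of every strength. The site on chromosome 19 at 36805663 to 36806405 (157 tags, 43.8-fold) had a shared uterus neighbour of only 6.85-fold. The site on chromosome 11 at 72231527 to 72232144 (124 tags, 42.2-fold) stood beside a uterus-only peak of 8.28-fold. The site on chromosome 8 at 72742854 to 72743556 (121 tags, 41.3-fold) stood beside a uterus-only peak of 4.83-fold. In these 3 cases a liver peak above 40-fold had a uterus neighbour near the lower end of its own list by fold enrichment, where the median was 14.7-fold. By tags these neighbours were not all low, with 92, 44 and 67 tags against a median of 55 over all autosomal uterus peaks. The site on chromosome 4 at 62384723 to 62385516 (201 tags, 41.2-fold) was 2050 bp from the summit of a shared uterus peak of 197 tags and 63.6-fold. On chromosome 16 the site at 30064962 to 30065659 (158 tags, 39.8-fold) was the closest of the 10, with 249 bp between it and a shared uterus peak of 193 tags and 30.5-fold. The last 2 lay on chromosome 5 at 116895521 to 116896328 (133 tags, 39.2-fold, neighbour 31.8-fold) and chromosome 7 at 87590975 to 87591749 (158 tags, 37.9-fold, neighbour 15.1-fold). Of the 10, 8 had another liver summit within 10 kb and 3 had a shared uterus neighbour, against 58.0% and 29.0% of all adjacent sites.

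Pairs in which both the adjacent site and its uterus neighbour were strong were picked by the sum of their fold ranks. After the pairs on chromosomes 3 and 4 already given came a liver site on chromosome 12 at 111482744 to 111483339 (60 tags, 26.0-fold), 5564 bp from a uterus-only summit of 146 tags and 82.0-fold. It was followed by a site on chromosome 14 at 26324639 to 26325261 (78 tags, 23.5-fold), with 4 other liver summits within 10 kb and a shared uterus neighbour of 333 tags and 83.4-fold. The remaining pairs were both on chromosome 3. The site at 65466973 to 65467639 (85 tags, 29.9-fold) had no other liver summit within 100 kb, and its uterus-only neighbour held 211 tags at 41.5-fold. The site at 84090167 to 84090677 (61 tags, 19.0-fold) was 2678 bp from a shared uterus peak of 364 tags and 105-fold.

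The adjacent sites with the most tags were wide peaks of moderate enrichment. The first was the peak of 3181 bp on chromosome 2 described above, with 405 tags. The second, on chromosome 4 at 62176309 to 62178722, held 343 tags over 2414 bp at only 6.75-fold, and the third, on chromosome 12 at 110087758 to 110089859, held 286 tags over 2102 bp at 14.7-fold. Such wide peaks were uncommon, since 5.32% of adjacent sites (4.28 to 6.59) were wider than 1000 bp, compared with 6.43% of remote and 13.1% of overlapping sites.

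Fold enrichments of adjacent sites and of their uterus neighbours were almost uncorrelated. Over the 1466 pairs Spearman's rho between the fold enrichments was 0.033 and Pearson's r of their log2 values was 0.038. Over the 1638 overlapping sites and their nearest uterus peaks the values were 0.384 and 0.445. These are descriptions across sites of the same 2 libraries, where adjacent sites with a common neighbour repeat its value.

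**Figure D5:**
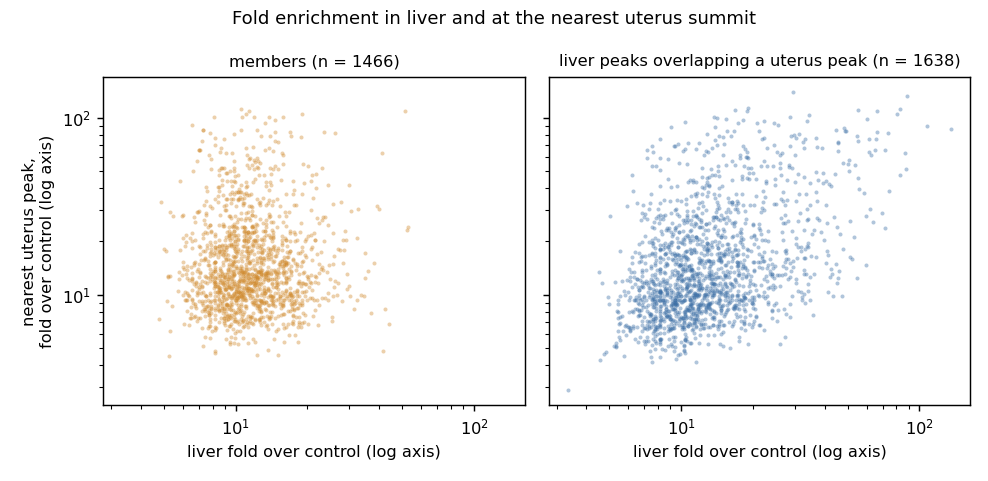
Fold enrichment of the liver peak (x axis, log) and of the uterus peak with the nearest summit (y axis, log), for adjacent sites (left, in the title members) and overlapping sites (right), with 1 point per liver peak. The left cloud shows no slope (rho 0.033), while the right one rises (rho 0.384).

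The uterus neighbours were slightly weaker than other uterus peaks by fold enrichment. Their median fold was 12.9 (quartiles 9.74 and 20.3) with 57 tags, against 14.7 (10.7 and 22.6) with 55 tags over all autosomal uterus peaks. Counted per liver-only peak, the nearest uterus peak had a median fold of 11.5 within 1 kb and 13.0 to 13.5 from 1 to 10 kb. For remote sites it was also 13.0 to 13.5 at 10 to 100 kb, and 14.5 beyond 100 kb. A lower fold was thus not particular to the neighbours of adjacent sites. Of the 1197 neighbours 25.9% (23.5 to 28.5) reached 20-fold, compared with 30.7% of the other autosomal uterus peaks and 30.5% of all, and the difference from the others was -4.81 percentage points (-7.29 to -2.19). Among neighbours that were uterus-only the share was 24.9%, against 31.0% of the other uterus-only peaks (-6.11 points, -8.92 to -3.09). Among shared neighbours it was 28.8%, against 26.4% of the other shared uterus peaks (2.41 points, -2.91 to 8.12), an interval that includes 0. Whether the uterus-only and the shared neighbours differ in this respect was not tested.

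Adjacent sites were present on every autosome. Their share of the liver-only peaks of a chromosome was highest on chromosome 8, with 111 of 321 (34.6%, 29.6 to 39.9), and lowest on chromosome 3, with 53 of 251 (21.1%, 16.5 to 26.6). These are the extremes of 19 chromosomes, picked after the values were seen, and the share over all of them was 27.9%.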

How the data were processed

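ESR1 ChIP-seq of 1 liver and 1 uterus library was analysed from the deposited peak lists. Per the submitters' processing notes the authors called peaks with MACS 1.3.7.1 on mm9, and per the file headers separately in each library against 1 control at a p cutoff of 1e-10, with tags of 50 bp. No aligner is named in the labels or headers. The deposited lists give raw tag counts per peak, a fold enrichment (ratio) over local control background, a score equal to −10 log10(p) and a false discovery rate in percent. Deeper libraries give more tags and more peaks past the cutoff.

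Overlap meant at least 1 bp, and a summit was start plus summit offset minus 1, on coordinates with both ends included. Chromosome X was left out. Shares carry Wilson and their differences Newcombe 95% intervals. No test between tissues was possible. Assignment to classes was checked on simulated data, where 1200 of 1200 peaks were placed correctly. The members and lists were chosen with earlier results of these data known. The text names the 10 sites of highest fold enrichment, the 6 closest, the 4 on either side of the limit, the 6 of best summed rank, the 3 uterus peaks nearest to the most sites and the 3 sites with the most tags. Alternatives were other distances, overlap rules and thresholds. Motifs and nearby genes had been planned but would require the mm9 sequence and gene models, which were not used here. Scripts ran under Python 3.11.15 with pandas 2.3.3, numpy 2.4.6, matplotlib 3.10.9 and scipy 1.17.1.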

Additional observations from a re-analysis of the deposited data

How the results depend on the processing

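The number of adjacent sites, 1466, was 842 with a limit of 5 kb, 2357 with 20 kb, 411 when both lists were limited to MACS scores from 200 upwards and 810 when both were limited to 10-fold enrichment or more, as these settings shorten or lengthen the lists or the range. The share with a shared uterus neighbour (29.0%) was 32.2% at 5 kb, 26.0% at 20 kb, 20.9% at the score threshold, 20.1% at the fold threshold and 26.4% with 1 site per uterus peak, an alternative chosen after seeing the data. The share with another liver summit within 10 kb (58.0%) was 50.8% at 20 kb, 45.5% at the score threshold, 48.5% at the fold threshold and 49.4% with 1 site per uterus peak. The share with uterus summits on both sides (16.9%) was 23.0% at 5 kb, 10.5% at 20 kb, 13.2% at the fold threshold and 14.6% when peaks within 1000 bp counted as overlapping. The median distance (4207.5 bp) was 2388 bp at 5 kb, 7766 bp at 20 kb, 5189.5 bp with the 1000 bp rule and 3622 bp with 1 site per uterus peak. The share with at least 20-fold enrichment (7.23%) was 18.7% at the score threshold, which removes weak peaks. The other 19 of 41 values stayed within the interval of the value reported, or within 1.5 times it for a count. Distances between edges in place of summits changed none of the 6 results in this sense. The alternatives for the estrogen response element were not run, since no mm9 genome was used here. No paired analysis was possible because each tissue has 1 library. Only called peaks were available, so a uterus site just under the cutoff counts as absent.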

Other observations

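The summits of adjacent sites did not lean towards the uterus site. The liver summit lay in the part of its own peak facing the uterus summit in 729 of 1466 cases (49.7%, Wilson interval 47.2 to 52.3).

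Among the adjacent sites named above, the deposited false discovery rate was higher at higher MACS scores, from 0.01% at a score of 102.3 to 0.66% at 978.2, and was 0% at scores of 979.7 and above. Its median over all adjacent sites was 0.03%. A rate above 0.5% was given to 5 adjacent sites (0.341%, 0.146 to 0.796).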
